A study of Mus musculus with 7 samples.

Results

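The genes described here are 10 components of antigen presentation by the major histocompatibility complex (MHC), taken as a fixed list of symbols from the 24964 genes of the deposited table. Of these, 7 belong to class II (H2-Aa, H2-Ab1, H2-Eb1, Cd74, H2-DMa, H2-DMb1 and Ciita) and 3 to class I (H2-K1, H2-D1 and B2m). All 10 were found in the table. Values are FPKM, fragments scaled to the length of the gene and to the size of the library, so levels can be compared between genes. Of the 10 genes, 9 had a mean of at least 1 FPKM over all libraries and entered the test, while Ciita fell below that level.

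RNA was sequenced from whole uterus of mice aged 12 weeks and staged as diestrus. The 3 control libraries, numbered 1, 2 and 4, carry the genotype Pgrcre/+, which is 1 allele of Cre recombinase under the progesterone receptor gene. The 4 libraries labelled Foxl2-LSL, numbered 1 to 4, carry Pgrcre/+Foxl2LsL/+, which adds 1 allele named Foxl2LsL to the same Cre allele. Every mouse therefore carries Pgr-Cre, and Cre acts where the progesterone receptor gene is or has been active, in the uterus mainly epithelium, stroma and muscle. The labels do not spell out the Foxl2LsL allele (LSL commonly stands for a stop sequence that Cre removes) and give neither strain nor kinship. MHC genes differ between mouse strains, and reads of a haplotype unlike the reference may align less well, which could lower FPKM of the H2 genes and was not tested. The labels number replicates without saying that each came from a separate animal, so all p-values measure the spread between these libraries. In RNA of a whole organ, fewer cells of a type and less RNA per cell cannot be told apart.

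Class II molecules display peptides from endocytosed proteins to CD4 T cells and are made mainly by dendritic cells, macrophages and B cells, with other cells following after interferon-gamma. Their expression depends on the co-activator CIITA, which is recruited to X and Y boxes in their promoters by the RFX, CREB and NF-Y proteins. Class I molecules display peptides from cytosolic proteins to CD8 T cells, pair a heavy chain with beta-2-microglobulin, and are made by nearly all nucleated cells. Their promoters respond to NF-kappaB, to interferon regulatory factors and to NLRC5, a relative of CIITA. In the uterus, antigen-presenting cells sit in the stroma and between epithelial cells.

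The library denominators recovered from the values were 47800000 to 67200000 fragments, of which 74.4% to 77.5% lay on listed genes. Foxl2 itself measured 11.1, 19.3 and 12.9 FPKM in controls 1, 2 and 4 and 12.7, 14.3, 14.8 and 17.2 FPKM in Foxl2-LSL 1 to 4. The groups overlapped, with a log2 difference of 0.06 (SE 0.18, limma adjusted p = 0.818), so this transcript does not separate the labels, and the groups are named by their labels throughout. Whether the listed gene model counts transcripts of the added allele is not given in the sources used here. The comparison as a whole called many genes: at a limma adjusted p under 0.05, 16.7% of 13334 tested genes were higher and 23.9% lower in the libraries labelled Foxl2-LSL, 40.6% together. Log2 differences were computed on log2(FPKM + 1), where the added 1 shrinks those of weakly expressed genes such as H2-DMa.

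The class II genes of the list were higher in the libraries labelled Foxl2-LSL where they passed the test, and none was lower. limma called 3 of the 6 tested, H2-Aa, H2-Eb1 and H2-DMa, against a background of 16.7% of tested genes called higher. By group means these 3 genes were 1.72-fold, 1.69-fold and 1.45-fold higher. H2-Ab1, Cd74 and H2-DMb1 did not pass, with log2 differences of 0.60, 0.52 and 0.26. The median log2 difference of the 6 genes was 0.56, while that of all tested genes was -0.05. At an unadjusted p under 0.05 the count of class II genes was 5, and limma-voom on recovered fragments called 2.

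The class II genes other than Cd74 and Ciita lie together in the MHC on chromosome 17, between the start of H2-DMa and the end of H2-Eb1 at chr17:34119541-34316674 (GRCm38, GENCODE M21). H2-Aa, for example, occupies chr17:34282744-34287823 on the minus strand. Its promoter is shown as an example that holds both an X box core and a Y box, the only class II elements searched for. RefSeq promoters (build GRCm38.p6) were found for 7 of the 10 genes, and H2-Ab1, Cd74 and Ciita are named only. The sequence below covers the 190 bases from 200 to 11 before the start of H2-Aa, chr17:34287834-34288023, minus strand, outside annotated exons. Capitals mark an X box core (CTNGNAAC) and the Y box (ATTGG, the reverse strand of CCAAT), whose first bases lie 36 bases apart.
H2-Aa: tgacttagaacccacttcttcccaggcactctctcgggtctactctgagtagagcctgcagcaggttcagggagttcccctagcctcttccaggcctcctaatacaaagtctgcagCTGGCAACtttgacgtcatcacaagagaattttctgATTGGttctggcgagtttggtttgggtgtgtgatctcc

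The stretch of 30 bases that begins with the X box core was set side by side for the 3 genes that hold it at this spacing, to show how alike the element is in genes that differ in level. It lies at chr17:34287878-34287907 on the minus strand for H2-Aa, at chr17:34305773-34305802 on the plus strand for H2-Eb1 and at chr17:34153094-34153123 on the plus strand for H2-DMb1. Capitals mark the X box core.
H2-Aa: CTGGCAACtttgacgtcatcacaagagaat
H2-Eb1: CTAGCAACtgatgatgctggactcctttga
H2-DMb1: CTAGTAACtgatgatgctaggctgattcac
The letters of the X box core and the spacing were set after these promoters had been seen, so the matches describe them and test nothing. Both strands of the 250 bases before each start were searched in all 32851 RefSeq promoters. CTNGNAAC occurred in 10.9% of them and CCAAT in 33.8%. On the strand of the gene, an X box core followed by ATTGG at 35 to 36 bases occurred in 5 promoters (0.0152%), those of H2-Aa, H2-Eb1, H2-DMb1, BC051142 and 1700048F04Rik. Of the genes with a printed X box, H2-Aa and H2-Eb1 passed the limma test and H2-DMb1 did not. H2-DMa, which passed, has 2 listed starts, and CTNGNAAC is in the window of neither. The letters are not confined to class II. The class I gene H2-D1 holds CTNGNAAC at position -212, without ATTGG at this spacing, and H2-K1, H2-D1 and B2m all hold CCAAT.

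H2-Aa encodes the alpha chain of the I-A molecule. It measured 52.2, 106 and 66.7 FPKM in controls 1, 2 and 4 and 118, 129, 141 and 129 FPKM in Foxl2-LSL 1 to 4. All 4 libraries labelled Foxl2-LSL lay above all 3 controls, and control 2 was nearest to them. Controls averaged 75.0 ± 27.9 FPKM (SD, n = 3) and the libraries labelled Foxl2-LSL 129 ± 9.55 FPKM (SD, n = 4), a log2 difference of 0.83 (SE 0.21, limma adjusted p = 0.0176). The call was lost in 3 of 18 alternative analyses.

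H2-Ab1 encodes the beta chain that pairs with H2-Aa. Its controls measured 33.4, 71.7 and 47.5 FPKM, and Foxl2-LSL 1 to 4 measured 66.6, 73.1, 77.6 and 80.3 FPKM. Control 2 lay above Foxl2-LSL 1, so the groups overlapped at this point and nowhere else. The log2 difference of 0.60 (SE 0.22) did not pass the test (limma adjusted p = 0.0641).

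H2-Eb1 encodes the beta chain of the I-E molecule. Its levels were 27.1, 59.0 and 38.3 FPKM in the controls and 64.2, 70.7, 70.9 and 74.0 FPKM in Foxl2-LSL 1 to 4. The groups did not overlap. The mean was 41.5 ± 16.1 FPKM (SD, n = 3) in controls and 69.9 ± 4.13 FPKM (SD, n = 4) in the libraries labelled Foxl2-LSL, a log2 difference of 0.81 (SE 0.22, limma adjusted p = 0.0236), and this call was lost in 6 of 18 alternative analyses. The gene for its partner alpha chain is a pseudogene in some MHC haplotypes, and the listed H2-Ea-ps was at 0 in all 7 libraries.

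Cd74 encodes the invariant chain, which holds the peptide groove of new class II molecules shut and guides them to endosomes. It was the most abundant class II gene, at 78.3, 138 and 92.7 FPKM in the controls and 129, 144, 146 and 159 FPKM in Foxl2-LSL 1 to 4. Control 2 again lay inside the range of the other group, above Foxl2-LSL 1. The log2 difference was 0.52 (SE 0.18) and just missed the threshold (limma adjusted p = 0.0504).

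H2-DMa and H2-DMb1 encode the chains of H2-M, the chaperone that exchanges the remnant of the invariant chain for peptide. H2-DMa measured 2.22, 4.15 and 2.92 FPKM in the controls against 4.25, 4.24, 4.75 and 4.66 FPKM in Foxl2-LSL 1 to 4. Its groups did not overlap, but the gap between control 2 and Foxl2-LSL 2 was small. Controls averaged 3.09 ± 0.979 FPKM (SD, n = 3) and the other group 4.47 ± 0.268 FPKM (SD, n = 4), a log2 difference of 0.45 (SE 0.15, limma adjusted p = 0.0496), and this call was lost in 13 of 17 alternative analyses. H2-DMb1 measured 4.97, 7.32 and 5.53 FPKM in the controls and 7.76, 6.46, 7.08 and 7.59 FPKM in Foxl2-LSL 1 to 4. Control 2 lay above 2 of the 4 libraries labelled Foxl2-LSL, and the log2 difference of 0.26 (SE 0.12) did not pass (limma adjusted p = 0.135). Both values carry some doubt about the source of reads: in GENCODE M21 transcripts, 22.7% of 50-base stretches of H2-DMb1 also occur in H2-DMb2, and 8.43% of those of H2-DMa in the overlapping gene Brd2.

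Ciita encodes the class II co-activator and was the least abundant of the 10 genes, on at least 240 fragments per library. It lies at chr16:10480059-10528418 on the plus strand. Its controls measured 0.631, 1.34 and 0.752 FPKM, and Foxl2-LSL 1 to 4 measured 0.949, 1.12, 0.970 and 1.03 FPKM. Control 2 was the highest of all 7 libraries and the other controls were the lowest. The means of 0.907 ± 0.379 FPKM (SD, n = 3) and 1.02 ± 0.0765 FPKM (SD, n = 4) differed by less than the spread of the controls (two-sided exact permutation p = 0.457), and without the filter on low values limma gave an adjusted p of 0.616.

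**Figure D1:**
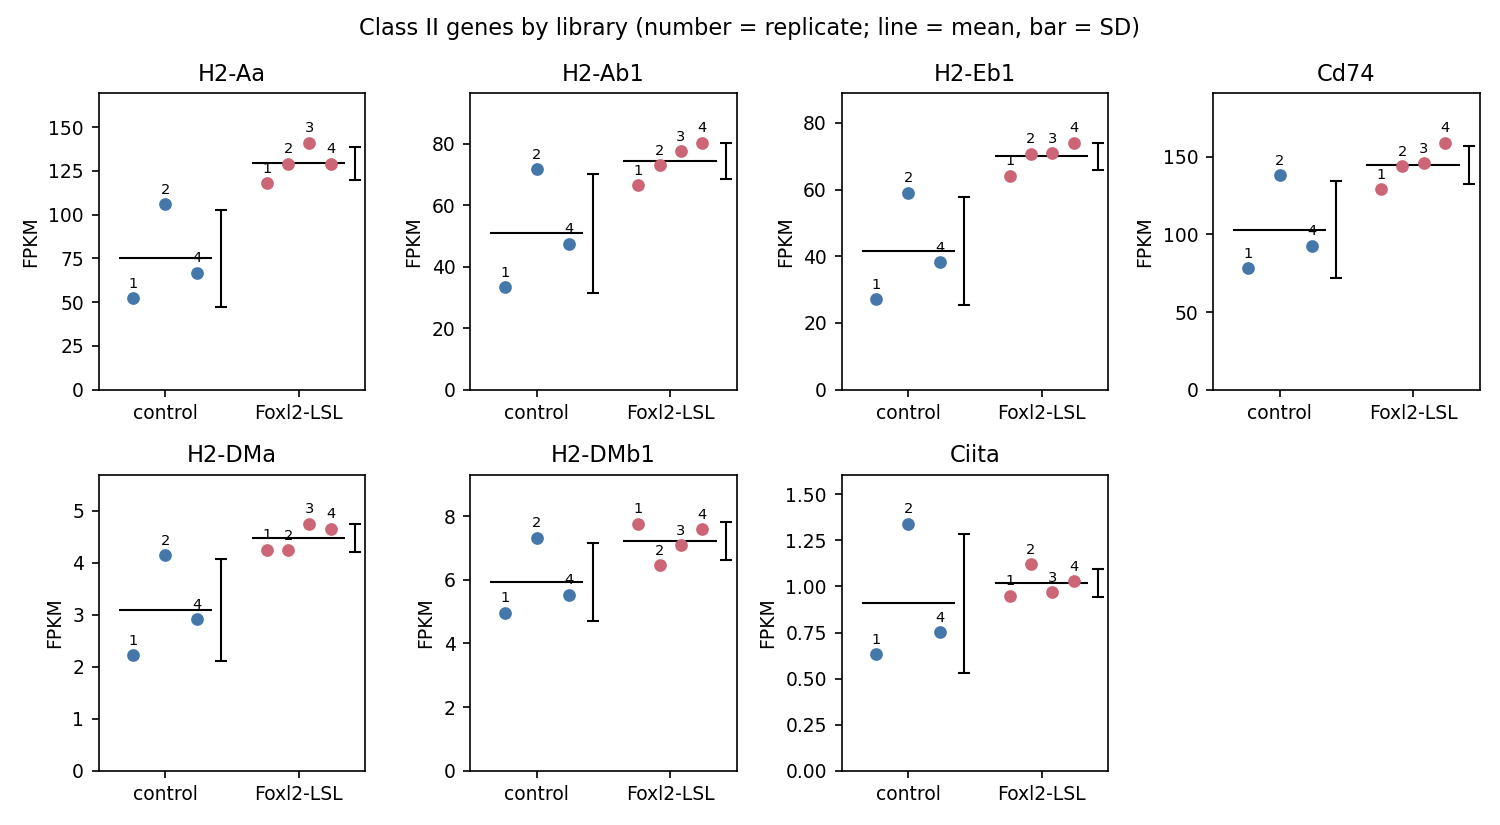
FPKM of the 7 class II genes, 1 panel per gene with its own axis from 0. Points are single libraries marked with their replicate number, lines are group means and bars the SD. Control 2 is the highest and control 1 the lowest control in every panel, and the 4 libraries labelled Foxl2-LSL lie closer together than the controls.

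The 7 class II genes ordered the controls alike. Control 2 was the highest control and control 1 the lowest for 7 of 7 genes, with a ratio of highest to lowest control of 1.47 to 2.17. Within the libraries labelled Foxl2-LSL the same ratio was 1.12 to 1.23. All 4 of these libraries lay above controls 1 and 4 for 7 of 7 genes, and above control 2 for the 3 called genes. Controls 1 and 4 were singled out by these same values, and the share of all genes above both was not computed. Groups were apart for 3 of the 7 genes, where 19.7% of all tested genes were apart in this direction and 47.6% in either. Without control 2, limma called 6 of 6 class II genes higher, with log2 differences of 0.88 for H2-Ab1 (adjusted p = 0.00916), 0.75 for Cd74 (adjusted p = 0.00681) and 0.39 for H2-DMb1 (adjusted p = 0.0299). Without Foxl2-LSL 3, limma called 0 of 6 class II genes (4 at an unadjusted p under 0.05), and without Foxl2-LSL 2 or Foxl2-LSL 4 it called 1.

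The class I genes of the list went the other way in the fit, with log2 differences of -0.74 for B2m, -0.65 for H2-K1 and -0.47 for H2-D1. Only B2m passed, as lower in the libraries labelled Foxl2-LSL, which is 1 of 3 genes against a background of 23.9% of tested genes called lower. The median of the 3 was -0.65, beside -0.05 for all tested genes. At an unadjusted p under 0.05, and by limma-voom, the count was also 1. No class I gene had groups that were apart, where 27.9% of all tested genes were apart in this direction.

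H2-K1 (chr17:33996017-34000347, minus strand) and H2-D1 (chr17:35262730-35267499, plus strand) flank the class II genes, and B2m lies at chr2:122147686-122153083 on the plus strand. The promoter of H2-K1 is shown for the paired element of class I genes and that of B2m for comparison. For each, the 190 bases from 200 to 11 before the start are printed, chr17:34000358-34000547 on the minus strand and chr2:122147487-122147676 on the plus strand. Capitals mark the kappaB site (GGGGATTCCCC), the interferon regulatory factor element (AANNGAAA or its reverse strand) and ATTGG.
H2-K1: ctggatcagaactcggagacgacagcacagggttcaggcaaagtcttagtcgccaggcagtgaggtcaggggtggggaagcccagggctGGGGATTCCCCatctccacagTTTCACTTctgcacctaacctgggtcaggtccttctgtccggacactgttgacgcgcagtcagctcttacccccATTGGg
B2m: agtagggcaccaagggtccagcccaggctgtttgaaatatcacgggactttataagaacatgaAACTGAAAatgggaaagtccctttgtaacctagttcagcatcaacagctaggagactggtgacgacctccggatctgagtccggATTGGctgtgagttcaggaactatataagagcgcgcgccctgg

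The kappaB and interferon elements stand together in both class I heavy chains, and these 29 bases are set side by side to show it. They lie at chr17:34000430-34000458 on the minus strand for H2-K1 and at chr17:35262923-35262951 on the plus strand for H2-D1, and differ at 1 base. Promoters follow RefSeq starts, which differ from the GENCODE bounds, so these bases of H2-D1 and the X box of H2-DMb1 lie inside the gene spans of GENCODE M21. Capitals mark the kappaB site and the interferon element.
H2-K1: GGGGATTCCCCatctccacagTTTCACTT
H2-D1: GGGGATTCCCCatctcctcagTTTCACTT
The letters of the kappaB site were read from the H2-K1 promoter itself, so the match there was certain and tests nothing. Among all 32851 promoters, GGGGATTCCCC occurred in 10 (0.0304%), which belong to 9 genes, among them H2-K1, H2-D1 and the class I heavy chain H2-Q6. AANNGAAA occurred in 21.3%. B2m holds the second element but not these letters of the first.

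H2-K1 encodes a classical class I heavy chain. It measured 413, 457 and 165 FPKM in controls 1, 2 and 4 and 226, 168, 212 and 199 FPKM in Foxl2-LSL 1 to 4. Controls 1 and 2 lay well above all other libraries, and control 4 lay below them all. The means of 345 ± 157 FPKM (SD, n = 3) and 201 ± 24.9 FPKM (SD, n = 4) did not differ beyond this spread (log2 difference -0.65, SE 0.33, limma adjusted p = 0.150).

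H2-D1, the other classical heavy chain, measured 144, 136 and 60.4 FPKM in the controls and 95.3, 62.8, 73.6 and 77.5 FPKM in Foxl2-LSL 1 to 4. As for H2-K1, controls 1 and 2 stood above and control 4 below every other library. The log2 difference was -0.47 (SE 0.30, limma adjusted p = 0.246). Heavy chains of this family resemble each other, and 9.63% of 50-base stretches of H2-K1 and 12.8% of those of H2-D1 occur in transcripts of other genes, mainly H2-Q genes, so a part of their fragments could be shared.

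B2m encodes beta-2-microglobulin, the light chain of all class I molecules, and ranked 85 of 24964 genes by mean FPKM. Its levels were 565, 719.9 and 322 FPKM in the controls and 321, 273, 332 and 289 FPKM in Foxl2-LSL 1 to 4. Control 4 lay within the range of the libraries labelled Foxl2-LSL, and controls 1 and 2 lay above it. The mean was 536 ± 201 FPKM (SD, n = 3) in controls and 304 ± 27.5 FPKM (SD, n = 4) in the other group, a log2 difference of -0.74 (SE 0.25, limma adjusted p = 0.0453). This call was lost in 10 of 18 alternative analyses, with adjusted p-values from 0.00104 to 0.138.

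**Figure D2:**
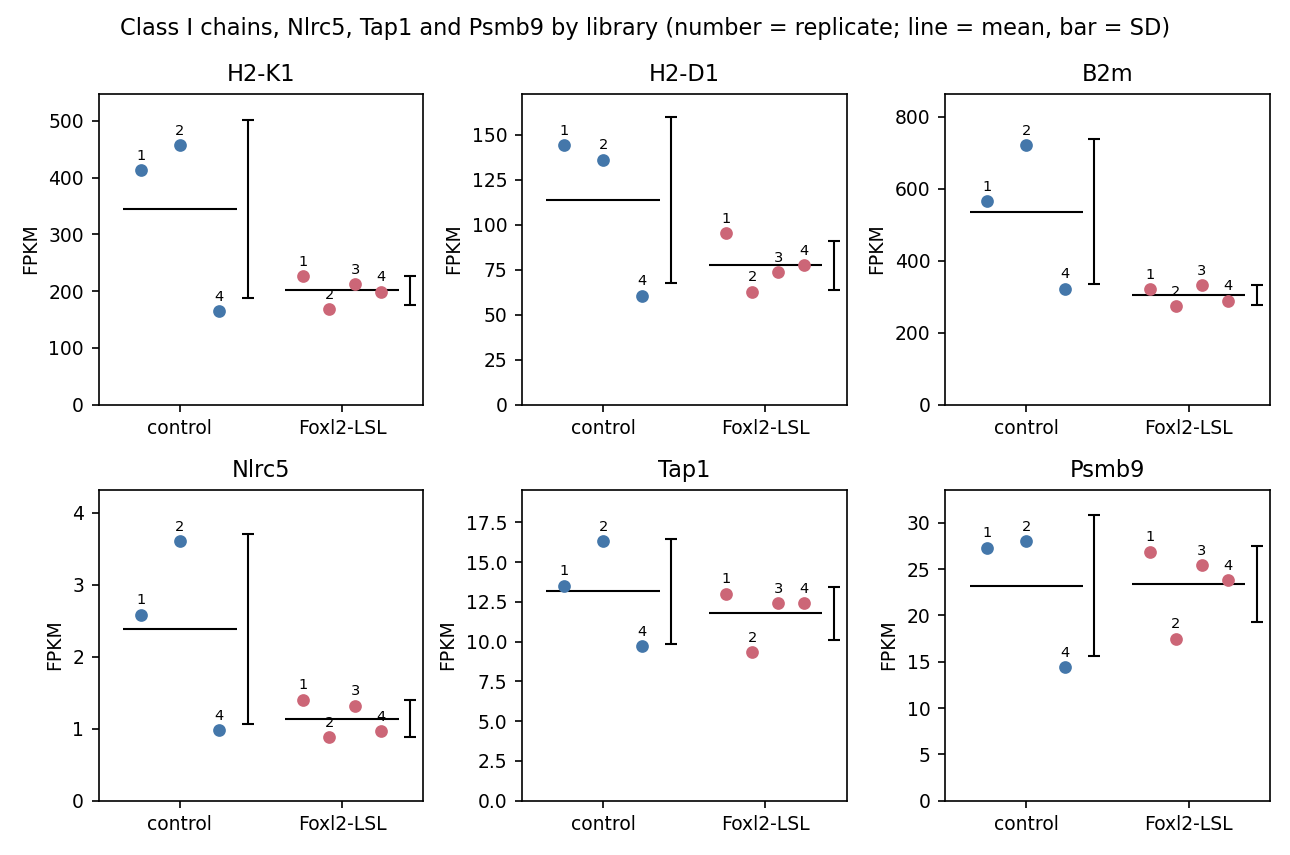
FPKM of the 3 class I genes and of Nlrc5, Tap1 and Psmb9, 1 panel per gene with its own axis from 0. Points are single libraries marked with their replicate number, lines are group means and bars the SD. Control 4 lies apart from controls 1 and 2 in each panel, at or near the level of the libraries labelled Foxl2-LSL for the class I genes.

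Among the fits that left out 1 library, H2-K1 and H2-D1 were called only without control 4. Control 4 was the lowest control for 3 of 3 genes, with a ratio of highest to lowest control of 2.24 to 2.76, and all libraries labelled Foxl2-LSL lay below controls 1 and 2 for 3 of 3 genes. Controls 1 and 2 were singled out by these same values, and the share of all genes below both was not computed. Without control 4, limma called 3 of 3 lower, with log2 differences of -1.12 for H2-K1 (adjusted p = 0.00100) and -0.87 for H2-D1 (adjusted p = 0.00466). Leaving out any other library gave 0 of 3 (0 or 1 at an unadjusted p under 0.05). Control 4 was also the lowest library for epithelial markers (summed level of Epcam, Cdh1, Krt8, Krt18 and Krt19: 528 FPKM, against 799 and 1094 FPKM in the other controls and 864 to 1166 FPKM in the libraries labelled Foxl2-LSL). It had the highest endothelial sum of all libraries (99.9 FPKM) and among the controls the highest adipose sum (16.3 FPKM). The part of these cells in the class I levels was not tested.

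**Figure D3:**
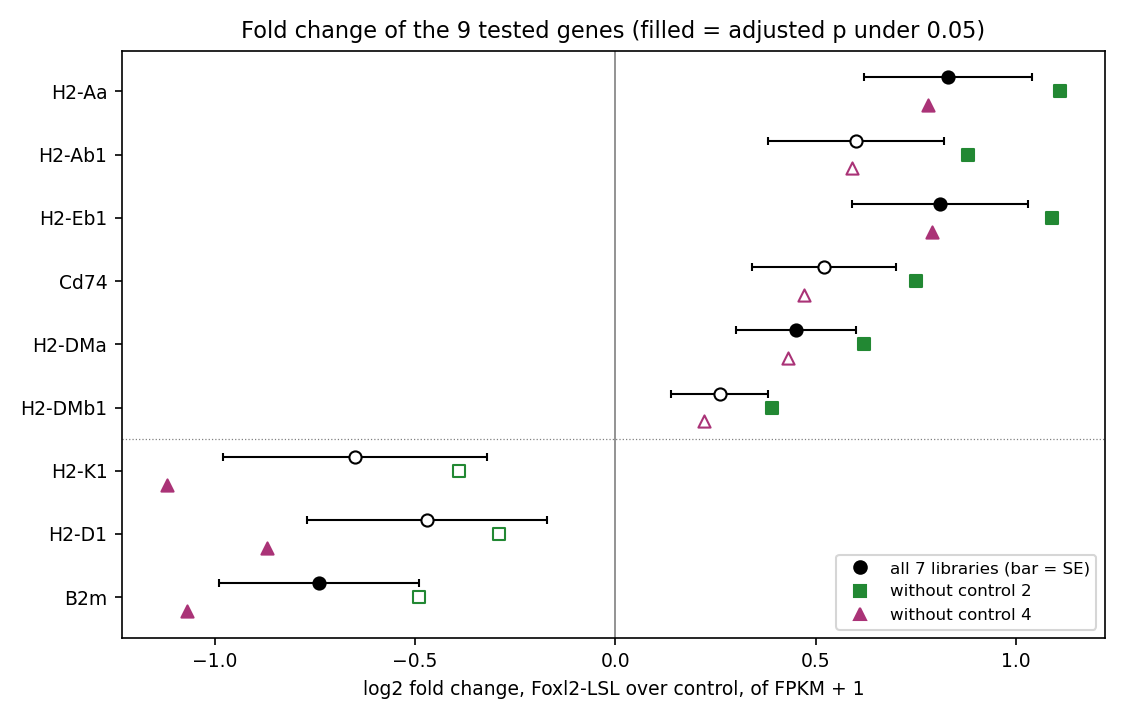
Log2 difference (libraries labelled Foxl2-LSL over controls, log2(FPKM + 1)) of the 9 tested genes, class II above the dotted line and class I below. Circles with SE bars use all 7 libraries, squares leave out control 2 and triangles control 4, and filled marks have an adjusted p under 0.05. Leaving out control 2 moves the class II genes away from 0 and leaving out control 4 does so for class I. Control 2 was the highest control for class II and control 4 the lowest for class I, so both shifts follow by construction.

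Ratios between genes of the same library do not depend on the scaling between libraries, and 10 of them were compared by a two-sided exact permutation test over the libraries. Its smallest possible p is 0.0571, so no ratio could pass 0.05. Among the class II chains, the ratio of H2-Eb1 to H2-Ab1 was nearly constant in the controls, at 0.812, 0.822 and 0.807, and was 0.963, 0.967, 0.915 and 0.922 in Foxl2-LSL 1 to 4. All 4 ratios lay above the controls (exact permutation p = 0.0571, 0.143 after adjustment over the 10 ratios). The ratio of H2-Aa to H2-Ab1 was likewise apart, at 1.56, 1.48 and 1.40 for the controls and 1.77, 1.76, 1.82 and 1.60 for Foxl2-LSL 1 to 4, with the same exact permutation p-values.

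Relative to H2-Ab1, Ciita was lower in all 4 libraries labelled Foxl2-LSL, at 0.0142, 0.0153, 0.0125 and 0.0128, than in the controls, at 0.0189, 0.0187 and 0.0158 (exact permutation p = 0.0571, adjusted 0.143). The invariant chain kept pace with H2-Ab1 within the spread of the libraries, at a ratio of 2.07 ± 0.237 (SD, n = 3) and 1.95 ± 0.0477 (SD, n = 4) (exact permutation p = 0.514). H2-DMa to H2-DMb1 was 0.513 ± 0.0620 (SD, n = 3) and 0.622 ± 0.0551 (SD, n = 4), with overlapping groups (exact permutation p = 0.114). For class I, H2-K1 to H2-D1 was 2.99 ± 0.328 (SD, n = 3) and 2.62 ± 0.211 (SD, n = 4) (exact permutation p = 0.171). B2m to the sum of both heavy chains was 1.22 ± 0.206 (SD, n = 3) and 1.10 ± 0.0892 (SD, n = 4) (exact permutation p = 0.343).

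**Figure D4:**
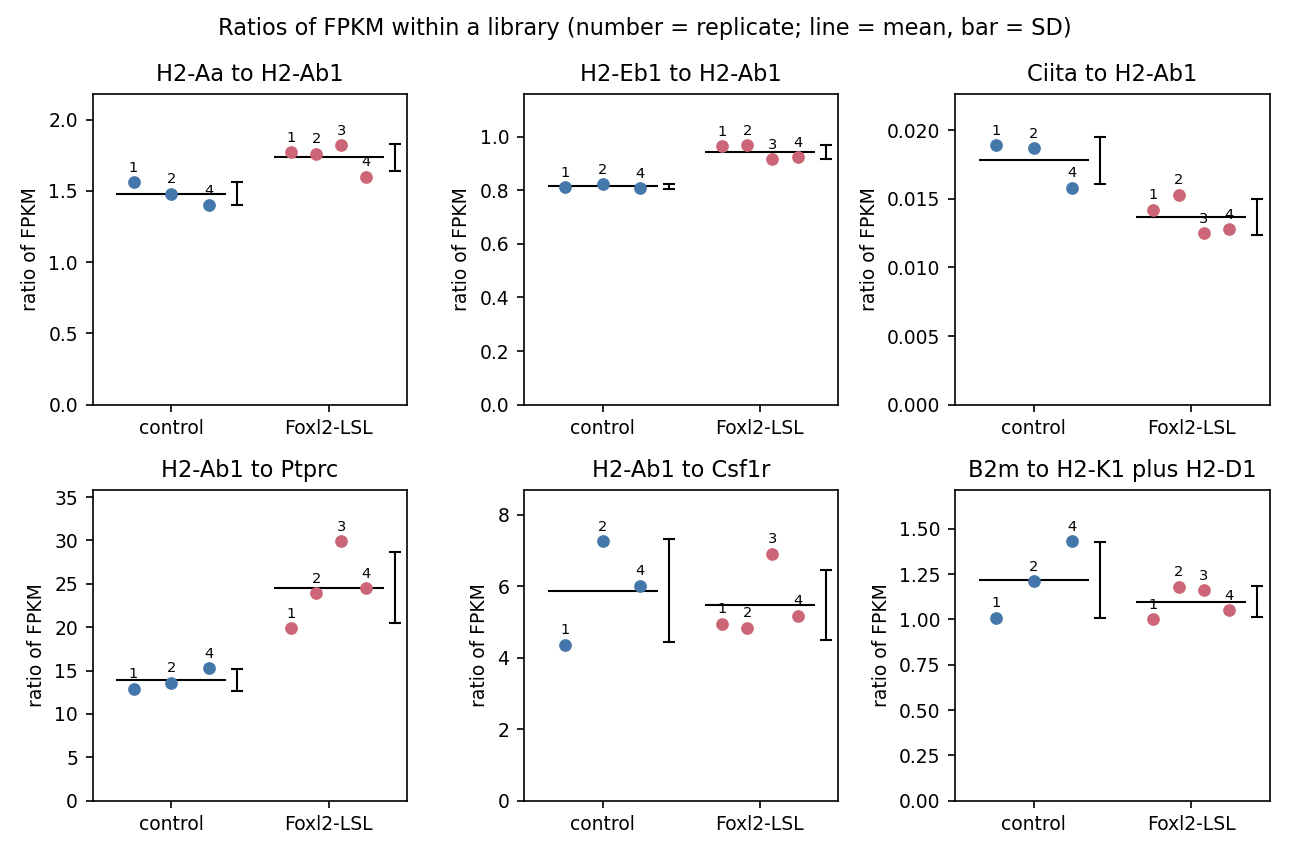
Ratios of FPKM within a library, 1 panel per ratio with its own axis from 0. Points are single libraries marked with their replicate number, lines are group means and bars the SD. H2-Aa and H2-Eb1 relative to H2-Ab1, and H2-Ab1 relative to Ptprc, are higher in all 4 libraries labelled Foxl2-LSL than in the 3 controls, and Ciita relative to H2-Ab1 is lower.

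Each class II gene was also divided by each class I gene in the same library. This was decided after the values had been seen and carries no test. Of the 21 ratios, 14 were higher in all 4 libraries labelled Foxl2-LSL than in all 3 controls, and the log2 differences of the 21 ran from 0.71 to 1.59. The other 7 ratios overlapped between groups, and 5 of those had H2-D1 as the class I gene. The ratios reuse the same genes, which moved together within each class, so they are not separate results. Of single tested genes, 47.6% had groups apart in either direction, and the share over all pairs of genes was not computed.

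Of 12 tested genes for accessory class II chains, endosomal proteases and promoter-binding factors, limma called 0 higher and 1 lower, with a median log2 difference of -0.11, against backgrounds of 16.7% and 23.9%. The gene called lower was Ifi30, a lysosomal thiol reductase that unfolds antigens, at -0.30 (limma adjusted p = 0.0334), a call lost in 9 of 18 alternative analyses. At an unadjusted p under 0.05, and by limma-voom, the counts were the same. Ctss, the protease that trims the invariant chain, was at -0.37 (limma adjusted p = 0.268), and Rfx5, a subunit of the factor bound at the X box, was at -0.06 (limma adjusted p = 0.561). H2-Ob, a chain of the H2-O inhibitor of H2-M, had a mean below 1 FPKM and measured 0.821, 1.35 and 0.907 FPKM in controls and 0.692, 0.588, 0.675 and 0.713 FPKM in Foxl2-LSL 1 to 4, and is named after its values were seen. Its groups did not overlap, in the direction opposite to H2-DMa, and 27.9% of tested genes had groups apart in that direction. Without the filter on low values, limma gave H2-Ob an adjusted p of 0.0725.

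Among 14 tested genes of peptide loading and the immunoproteasome of class I, 1 was called higher and 2 lower, with a median of -0.14. The backgrounds were 16.7% of all tested genes higher and 23.9% lower. Tap2, a subunit of the peptide transporter, was higher at 0.28 (limma adjusted p = 0.0293), and its partner Tap1 was at -0.13 (adjusted p = 0.590). The call of Tap2 was lost in 8 of 18 alternative analyses, and those of Pdia3 and Canx in 6 of 18 each. The chaperones of the loading complex Pdia3 at -0.47 (limma adjusted p = 0.0249) and Canx at -0.36 (adjusted p = 0.0269) were lower. The immunoproteasome subunits Psmb8 at -0.35 (limma adjusted p = 0.246) and Psmb9 at 0.05 (adjusted p = 0.890) did not pass. Nlrc5, the class I co-activator, measured 2.58, 3.60 and 0.981 FPKM in controls and 1.40, 0.877, 1.32 and 0.965 FPKM in Foxl2-LSL 1 to 4. It repeated the pattern of the class I genes, high in controls 1 and 2 alone, and its log2 difference of -0.59 (limma adjusted p = 0.119) became -0.93 without control 4 (adjusted p = 0.00368). Control 4 was the lowest control for Nlrc5, so leaving that library out lowers the difference by construction.

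Of the other class I heavy chains and class I-like genes, 13 were tested, of which 2 were higher and 2 lower, with a median of -0.19. The backgrounds were again 16.7% of all tested genes higher and 23.9% lower. Fcgrt, the neonatal Fc receptor, was higher at 0.54 (limma adjusted p = 0.00317), as was Hfe, a regulator of iron uptake, at 0.41 (adjusted p = 0.0116). Hfe stood outside the naming rule and is given to complete the count. H2-M5 at -0.94 (limma adjusted p = 9.95e-04) and Cd1d1, which presents lipids to NKT cells, at -0.61 (adjusted p = 0.00301) were lower. Fcgrt, Hfe and Cd1d1 products pair with beta-2-microglobulin.

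Interferon-gamma is the main inducer of CIITA. Of 10 tested genes of its pathway, 2 were higher and 2 lower, with a median of 0.04, against backgrounds of 16.7% and 23.9%. Irf2 was higher at 0.62 (limma adjusted p = 5.05e-04), as was the receptor chain Ifngr1 at 0.31 (adjusted p = 0.0317, lost in 6 of 18 alternative analyses). The feedback inhibitor Socs1 at -0.66 (limma adjusted p = 0.00837) and Irf8, a factor of myeloid cells, at -0.42 (adjusted p = 0.0207) were lower. Irf1, a factor that acts on Ciita and class I promoters, did not pass, at 0.03 (limma adjusted p = 0.899). Ifng itself was listed at 0 to 0.0760 FPKM.

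**Figure D5:**
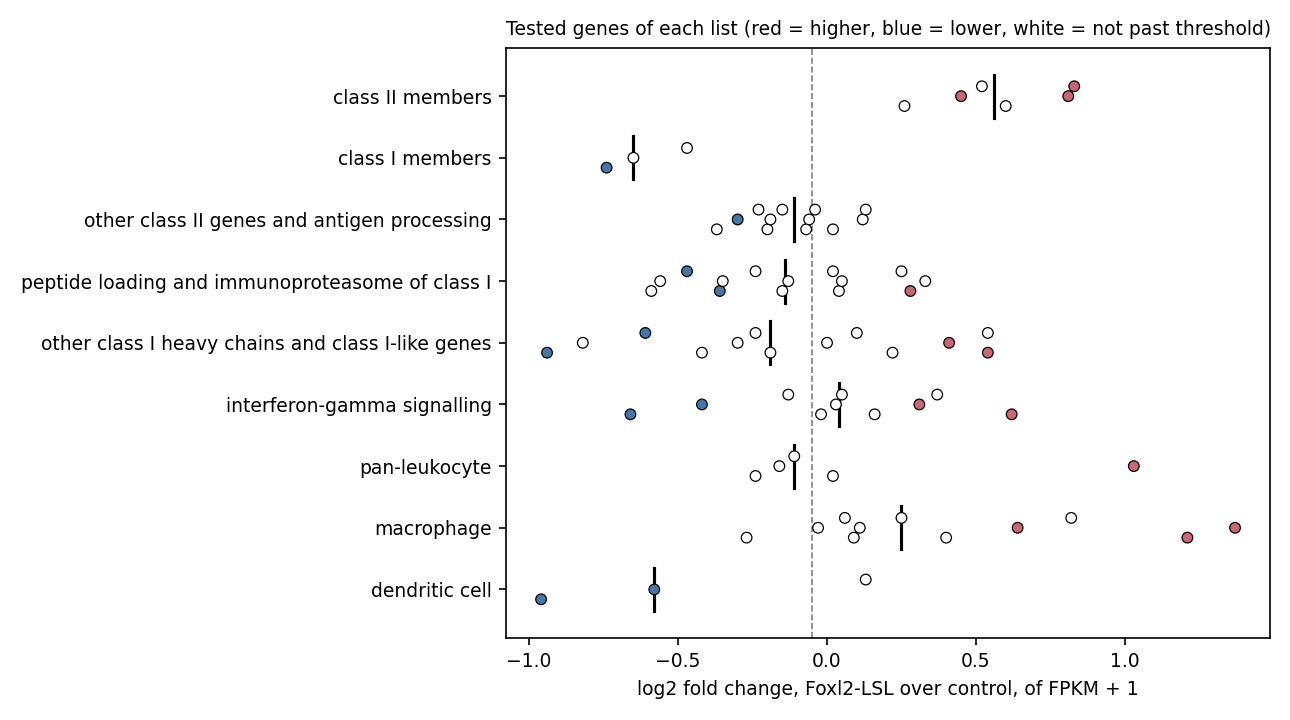
Log2 difference (libraries labelled Foxl2-LSL over controls, log2(FPKM + 1)) of each tested gene, by list. Filled points passed the threshold (red higher, blue lower), short bars are list medians and the dashed line is the median of all tested genes, -0.05. The class II genes lie to the right, at a median of 0.56, while other class II and antigen processing genes have a median of -0.11.

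Markers of the cells that make class II moved in different directions. For the counts in these and the other marker lists, the backgrounds were 16.7% of all tested genes called higher and 23.9% lower. Of 11 macrophage genes 3 were higher, Mrc1 at 1.37 (limma adjusted p = 4.11e-04), Cd163 at 1.21 (adjusted p = 0.00173) and Csf1r at 0.64 (adjusted p = 0.00691), and none was lower. The summed macrophage level was 186 to 271 FPKM in controls and 244 to 305 FPKM in the libraries labelled Foxl2-LSL, with control 1 lowest as for class II. Of 8 dendritic cell genes 3 were tested and 2 were lower, Batf3 at -0.96 (limma adjusted p = 5.37e-04) and Zbtb46 at -0.58 (adjusted p = 0.00817). The other tested gene, Cd209a, did not pass, at 0.13 (limma adjusted p = 0.717). The sum over all 8 genes was 9.15 to 13.9 FPKM in controls and 6.37 to 8.78 FPKM in the other group, with control 2 highest. That sum includes Batf3 (means 3.14 FPKM in controls and 1.12 FPKM in the other group) and Zbtb46 (2.36 and 1.24 FPKM). Itgax had a mean below 1 FPKM and averaged 1.31 ± 0.515 FPKM (SD, n = 3) in controls and 0.761 ± 0.167 FPKM (SD, n = 4) in the other group, with no overlap, and Flt3 lay between 0.249 and 0.602 FPKM. Groups were apart in that direction for 27.9% of tested genes. Without the filter on low values, limma gave adjusted p-values of 0.112 for Itgax and 0.318 for Flt3.

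Lymphocyte markers were low. The 5 B cell genes summed to 1.09 to 1.63 FPKM in controls and 1.23 to 2.84 FPKM in the libraries labelled Foxl2-LSL. The only one tested, Cd79b, was higher at 0.48 (limma adjusted p = 0.0484), a call lost in 9 of 17 alternative analyses. None of 5 T cell genes reached a mean of 1 FPKM, and Cd3e lay between 0.202 and 0.445 FPKM. The natural killer gene Gzma was higher at 1.44 (limma adjusted p = 4.11e-04), 1 of 2 tested genes of its list. Of 2 tested neutrophil genes limma called 0 (also 0 at an unadjusted p under 0.05 and by limma-voom). No gene of these leukocyte lists was at 0 in all libraries. Their part in the class II levels was not tested.

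The pan-leukocyte gene Ptprc (CD45) was highest in control 2, like the class II genes, at 2.60, 5.25 and 3.11 FPKM in controls and 3.36, 3.06, 2.60 and 3.27 FPKM in Foxl2-LSL 1 to 4. Its log2 difference was -0.16 (limma adjusted p = 0.536), and of 5 pan-leukocyte genes only Laptm5 passed, higher at 1.03 (adjusted p = 0.0135). H2-Ab1 relative to Ptprc was 12.9, 13.6 and 15.3 in the controls and 19.9, 23.9, 29.9 and 24.5 in Foxl2-LSL 1 to 4. This ratio varied little among the controls, unlike H2-Ab1 itself, and the groups were apart (exact permutation p = 0.0571, adjusted 0.143). Relative to Csf1r, H2-Ab1 was 5.89 ± 1.45 (SD, n = 3) and 5.47 ± 0.972 (SD, n = 4), with overlapping groups (exact permutation p = 0.686). H2-K1 relative to Ptprc was 159, 87.0 and 53.2 in controls and 54.8 to 81.5 in the other group (exact permutation p = 0.400).

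Of the tissue markers, Krt18 was higher at 0.80 (limma adjusted p = 0.00854), 1 of 5 epithelial genes, while Epcam was at 0.27 (adjusted p = 0.524). Of 5 stromal genes Dcn was higher at 1.25 (limma adjusted p = 3.07e-04), and Pdgfrb at -0.71 (adjusted p = 0.0134) and Vim at -0.56 (adjusted p = 0.0306) were lower. Myh11 was higher, 1 of 4 smooth muscle genes, and 3 of 4 endothelial genes were lower, while none of the 3 adipose genes or the 1 ovarian gene tested passed. The adipose sum ran from 0.0160 to 16.3 FPKM in controls and from 0.657 to 51.0 FPKM in the other group, without following the order of the class II or class I genes.

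Likeness to the 2 classes was described by Pearson's r over the 7 libraries after subtracting each group's mean, which leaves the spread within groups. All points share library depth and tissue make-up. The controls spread more widely than the libraries labelled Foxl2-LSL for 7 of 7 class II and 3 of 3 class I genes, so r rests largely on the 3 controls. The genes named as most like a class are the extremes of all tested genes, over only 7 libraries. Each class II gene had an r of 0.83 to 0.991 with the mean of the other class II genes, lowest for H2-DMb1, and each class I gene had an r of 0.943 to 0.997 with the others of its class. Among genes outside the list, Rap1gap2 (0.987), Asah2 (0.985), Surf6 (0.983) and Fbxo36 (0.983) were most like class II. Rap1gap2 and Asah2 were higher in the libraries labelled Foxl2-LSL, at 0.40 (limma adjusted p = 0.0162) and 0.38 (adjusted p = 0.0123), and Surf6 was lower at -0.32 (adjusted p = 0.0117). Most like class I were Rnf181 (0.998), Cip2a (0.994), Xrcc6 (0.993) and Cenpf (0.992). Of these Cip2a at -1.42 (limma adjusted p = 0.00252), Cenpf at -1.53 (adjusted p = 0.00762) and Xrcc6 at -0.27 (adjusted p = 0.0377, lost in 10 of 18 alternative analyses) were lower. Rnf181 was at 0.26 (limma adjusted p = 0.0531), with all 4 libraries labelled Foxl2-LSL above the controls. Within the lists, r with class I ran from -0.955 (Mertk) to 0.974 (Nlrc5), with H2-T23 (0.97), Psmb9 (0.959) and H2-Q4 (0.958) close to Nlrc5. With class II, r ran from -0.661 (Cd1d1) to 0.887 (Ptprc). The other pan-leukocyte genes had an r with class II of -0.067 (Laptm5) to 0.75 (Cd52), so Ptprc does not stand for its list.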

How the data were processed

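RNA was extracted with TRIzol and sequenced in 7 libraries of whole uterus, per the labels' protocols. The authors deposited 1 table of FPKM values per gene and library, with gene length in bases as another value, per the file headers. STAR 2.5.2b, featureCounts 1.5.0-p1 (Subread), DESeq2 1.12.4 and build mm10 are named, without roles, per the submitters' processing notes. Annotation, strand setting and treatment of reads shared within gene families are not given in the sources used here.

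Depth was recovered because FPKM times length came in steps, each worth 1 fragment. Among 1338 to 1482 low values per library (genes of at most 1500 bases, at most 20 fragments), 100% were whole to within 0.1, and 20% are expected at random. Intervals from such depths would cover counting error only. Groups came from the sample titles, and the labels give no batch.

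Genes with a mean of at least 1 FPKM were compared as log2(FPKM + 1) with limma 3.58.1 in R 4.3.3 (lmFit, eBayes with intensity trend), adjusted by Benjamini-Hochberg over 13334 genes, threshold 0.05. Tested on simulated data for these genes, 189 of 200 genes changed by 1.5 (log2) were recovered, with 17 false calls. That change is larger than the log2 difference of any of the 10 genes, so the recovery does not apply to them. Far fewer genes were changed there than the 40.6% called in the data. Ratios used the exact permutation test of scipy 1.17.1. Sequences and motifs came from RefSeq promoters (GRCm38.p6), positions and shared 50-base stretches from GENCODE M21. The 10 genes and the pathway and marker lists were chosen with earlier results of these data known. Named by rule were the 10 genes, 15 others whatever their result (others under the rule are not reported here), up to 3 more called genes with the largest change per list, and the 4 genes most like each class. Alternatives covered scaling, pseudocount, filter, model, a replicate block and leaving out each library.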

Additional observations from a re-analysis of the deposited data

Results flagged for a closer look

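In groups of 4 libraries, 68 items were checked for 1 library far from the other 3, by the gap to the nearest other library as a share of the group's range (Dixon's test). Chance gives about 1 in 20, and 2 stood out. Tap1 measured 9.34 FPKM in Foxl2-LSL 2, while the other 3 libraries labelled Foxl2-LSL lay between 12.4 and 13.0 FPKM. The ratio of H2-Ab1 to Csf1r was 6.92 in Foxl2-LSL 3, while the other 3 libraries lay between 4.84 and 5.18, with the lowest Csf1r of that group (11.2 FPKM) in the same library.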

How the results depend on the processing

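None of the 10 genes changed direction in the alternatives in which it was fitted. Of 13334 genes, 5409 passed; the count stayed within 1.5 times of this in all alternatives but the replicate block on numbers 1, 2 and 4 (3243), and was 3853 to 5328 without 1 library. Class II genes past the threshold numbered 3, and 5 with median centring, 0 with array weights (2 at an unadjusted p under 0.05), 1 with the replicate block, 0 for the same libraries without it (4 at an unadjusted p under 0.05), and 0 to 6 without 1 library. Class I genes past it numbered 1, and 3 with array weights, 0 with median centring, without a filter, with the block and without it (1 at an unadjusted p under 0.05 in each), and 0 to 3 without 1 library. The cause was not tested. Same-numbered libraries had correlations of deviations of 0.228, -0.031 and -0.112 (numbers 1, 2 and 4), which do not settle whether the numbers pair them. Some genes that did not pass changed sign. Psmb9 was at -0.13 and Foxl2 at -0.15 with array weights. Without 1 library, Tap1 ran from -0.32 to 0.03, Psmb9 from -0.25 to 0.21, Irf1 from -0.09 to 0.13, Ptprc from -0.32 to 0.08, Epcam from -0.13 to 0.60 and Foxl2 from -0.10 to 0.28. limma-voom on recovered fragments called 5381 genes. Depth limits the lymphocyte markers, which rest on few fragments, and the spread of the 3 controls limits the 10 genes.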

Other observations

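A few class I relatives below the filter, and the T cell gene Cd4, had groups that did not overlap. They were chosen after their values were seen. Of the genes that passed the filter, 47.6% had groups that did not overlap, and the share among genes below it was not computed. The exact permutation test could not go below p = 0.0571, while limma without the filter on low values gave adjusted p-values of 0.00603 for Cd1d2, 0.00168 for H2-Q10 and 0.00473 for Cd4. Cd1d2, a lipid-presenting class I-like gene, was listed at 2.08, 1.67 and 1.69 FPKM in controls and 0.822, 0.185, 0.199 and 0.0610 FPKM in Foxl2-LSL 1 to 4, and shares 31.0% of its 50-base stretches with Cd1d1. H2-Q10, a class I heavy chain known as a secreted product of liver, was at 0.466 to 0.568 FPKM in controls and 0.155 to 0.247 FPKM in the libraries labelled Foxl2-LSL. Cd4, the co-receptor that binds class II, was at 0.198 to 0.357 FPKM in controls and 0.717 to 1.28 FPKM in the other group.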
